A study of Mus musculus with 6 samples.

Results

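Bcl6, its close relative Bcl6b and 5 genes for proteins of the corepressor complexes that dock on the BTB domain of Bcl6 were followed by gene symbol. The list was Bcl6, Bcl6b, Bcor, Bcorl1, Ncor1, Hdac3 and Tbl1xr1, and 6 of the 7 were measured, among 19937 genes in all; the transcript of Ncor1 was not analysed here. The samples were Thy1.2+ cells of E17.5 Rag1-/- mouse fetal thymi, each hybridised to a one-colour array that reads whole transcripts, and 6 arrays formed 3 groups of 2. In the first group, 79-6-40h, the thymi received anti-CD3 and 50 µM 79-6 for 40 h (79-6 cells). In the second, Control-DMSO-40h, they received anti-CD3 and DMSO for 40 h (DMSO cells), and in the third, Control-0h, cells came from fresh thymi at 0 h, without stimulation (fresh cells). All 3 groups carry the Rag1 deletion, which stops thymocytes before the T cell receptor genes are rearranged, so antibody to CD3 stands in for the missing pre-T cell receptor. The stimulated material was organ culture per the series design, in which other thymic cell types are present, and how many embryos went into an array is not given in the sources used here.

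Bcl6 is a transcriptional repressor with zinc fingers that bind DNA and an N-terminal BTB domain. A pair of BTB domains forms a groove that holds a short stretch of a corepressor such as Bcor or Ncor1, and 79-6 is a small molecule that was designed to occupy that groove. Ncor1 brings the histone deacetylase Hdac3 in a complex with Tbl1xr1, its relative Tbl1x and Gps2, whereas Bcor brings a Polycomb complex that ubiquitinates histone H2A. In lymphocytes Bcl6 is best known from germinal centre B cells and follicular helper T cells. It is also expressed in developing thymocytes, and the study asks how it acts on Notch signalling there. An array reads transcript, so neither Bcl6 protein nor the occupancy of its groove was measured.

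Bcl6 was the member that changed most. Its signal was 372 and 365 in 79-6 cells, 505 and 578 in DMSO cells and 182 and 165 in fresh cells (intensity, in arbitrary linear units). The 3 groups did not overlap, with DMSO cells highest, 79-6 cells between and fresh cells lowest, and the gap between any 2 groups was wider than the spread within them. On the log2 scale the means were 8.53 ± 0.02 in 79-6 cells, 9.08 ± 0.14 in DMSO cells and 7.43 ± 0.10 in fresh cells (SD, n = 2 each). Whether the replicates of a group came from different cultures or litters is not given in the sources used here, and all p-values below rest on array-to-array spread alone, which may be technical.

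**Figure D1:**
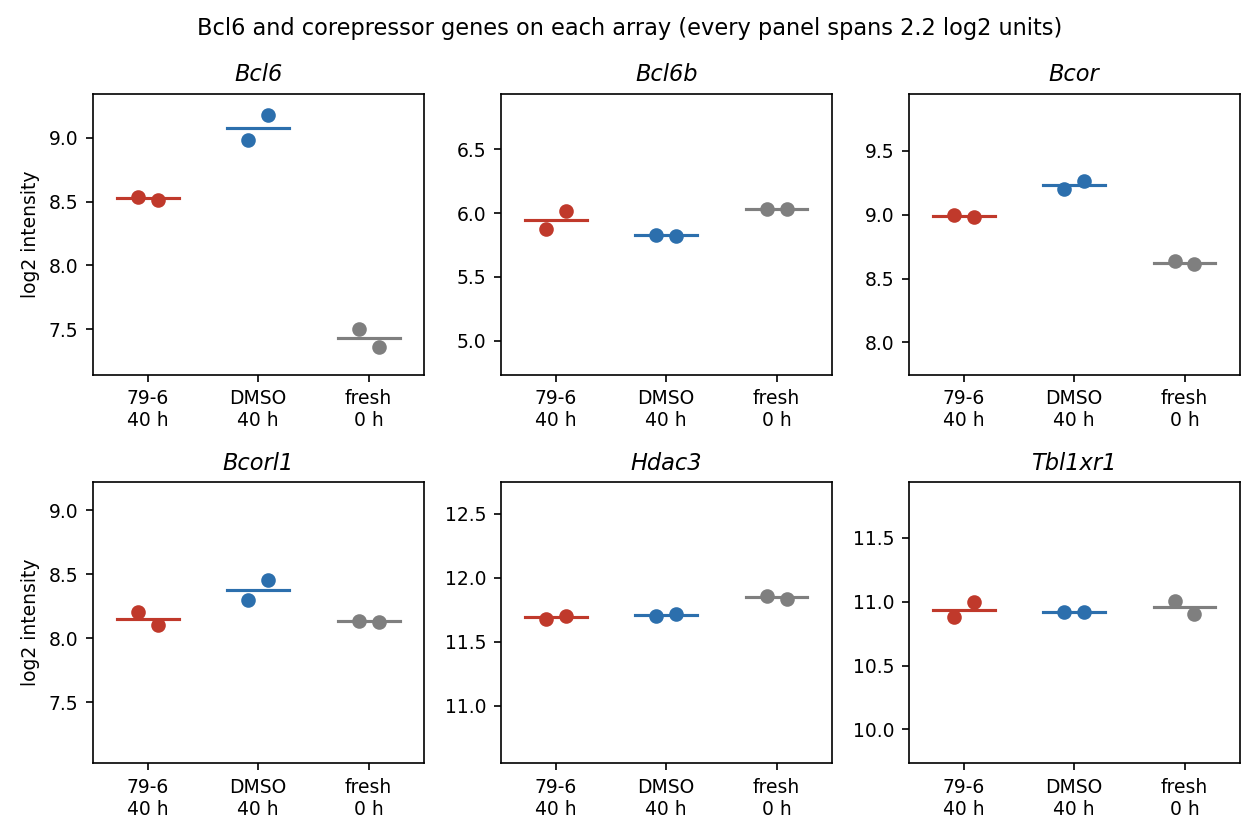
Log2 intensity (vertical axis) of the 6 measured genes on each array, by group (horizontal axis), with 79-6 cells in red, DMSO cells in blue and fresh cells in grey. Points are arrays and lines are group means of 2 arrays. The 3 groups do not overlap for Bcl6, Bcor, Bcl6b and Hdac3. Among the genes other than Bcl6 and Bcor the group means differ by at most 0.24 log2 units.

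RefSeq (GRCm38.p6) lists 2 start sites for Bcl6, and the window of 300 bases around each, 250 before and 50 after, is shown because Bcl6 itself rose and fell here. The capitals mark matches to TTCNNNGAA, searched on both strands, the palindrome that STAT factors recognise and to which the Bcl6 binding sequence is closely related. Both windows are read 5′ to 3′ on the minus strand.
Bcl6 upstream start, chr16:23988803-23989102: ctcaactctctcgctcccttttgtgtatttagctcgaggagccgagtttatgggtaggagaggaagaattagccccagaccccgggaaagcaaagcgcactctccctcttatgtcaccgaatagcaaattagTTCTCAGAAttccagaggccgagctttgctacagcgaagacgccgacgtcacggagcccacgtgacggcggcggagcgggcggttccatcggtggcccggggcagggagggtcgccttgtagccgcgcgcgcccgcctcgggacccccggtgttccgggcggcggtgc
Bcl6 downstream start, chr16:23981234-23981533: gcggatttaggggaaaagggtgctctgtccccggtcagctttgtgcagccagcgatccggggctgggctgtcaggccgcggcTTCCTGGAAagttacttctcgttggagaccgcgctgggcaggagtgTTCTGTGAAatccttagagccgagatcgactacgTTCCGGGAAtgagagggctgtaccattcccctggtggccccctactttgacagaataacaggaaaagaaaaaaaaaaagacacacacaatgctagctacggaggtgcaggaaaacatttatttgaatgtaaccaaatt
The upstream window holds 1 match, at -118 to -110 from the start site, and the downstream window holds 3, at -168 to -160, -122 to -114 and -88 to -80. Of all 32851 promoter windows of this length 8.3% hold at least 1 match and 0.0335% (11 windows) hold 3 or more. The cut of 3 is the number found in the downstream Bcl6 window, itself among these 11, so this share is a description only. The stricter form TTCCTAGAA, which is itself a TTCNNNGAA match and is present in 0.411% of all windows, is in neither Bcl6 window, and neither holds TGGGAA, the core of the sequence bound by the Notch effector Rbpj, found in 25.6% of windows. These are letters in a window and do not show that a factor binds there.

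The comparison of DMSO cells with fresh cells shows the members before and after 40 h with anti-CD3 and vehicle. Bcl6 rose 3.12-fold, a log2 change of 1.64 ± 0.09 (SE) with an adjusted p of 5.07e-05 (limma, Benjamini-Hochberg over 19937 genes). Bcor, which recruits a Polycomb complex to Bcl6, rose too. These were 2 of 6 measured members called, at an adjusted p under 0.05, where 19.6% of all genes were called and 8.89% were called higher, and both members were higher; 6 genes are few to set against these shares. By size of change Bcl6 stood at rank 161 of 19937 genes and Bcor at rank 1428. The comparison joins culture, time, vehicle and stimulation, which cannot be told apart. In bulk RNA, moreover, fewer cells of a type and less RNA per cell cannot be told apart.

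The signal of Bcor was 511 and 505 in 79-6 cells, 588 and 615 in DMSO cells and 398 and 391 in fresh cells. Its arrays fell in the same order of groups as those of Bcl6, again without overlap. The rise in DMSO cells over fresh cells was 1.53-fold (log2 change 0.61 ± 0.07 SE, adjusted p = 0.00104 by limma). RefSeq lists 2 overlapping start sites for Bcor on the X chromosome, and both windows hold the same single TTCNNNGAA match. It is shown with its 5 neighbouring bases on each side, for comparison with the matches at Bcl6.
Bcor: ctcacTTCGGAGAAaggga
Of 2 windows of Ncor1, the one at chr11:62438466-62438765 (minus strand) holds the stricter TTCCTAGAA, at 5 to 13 bases after the start site, and TGGGAA at -222 to -217, and the other holds none of the 3 sequences. Its TTCCTAGAA match is shown in the same way.
Ncor1: gttgcTTCCTAGAAacatg
The windows of Bcorl1 and Tbl1xr1 have no match to any of the 3 sequences searched, and those of Bcl6b and Hdac3 were not analysed here.

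Bcorl1, the relative of Bcor that shares many of its partners, had signals of 295 and 275 in 79-6 cells, 315 and 351 in DMSO cells and 282 and 280 in fresh cells. Both DMSO arrays were the highest, while 79-6 and fresh cells overlapped. The change in DMSO over fresh cells was 0.24 ± 0.08 (SE, log2), which was not called (limma, adjusted p = 0.0846) although the unadjusted 95% interval ran between 0.05 and 0.44.

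Bcl6b, a BTB and zinc finger protein closely related to Bcl6, did not share its course. Its probe set was dim, at 58.8 and 64.7 in 79-6 cells, 57.0 and 56.6 in DMSO cells and 65.4 and 65.6 in fresh cells, all below the median signal of the arrays, which lay between 99.3 and 103.6. The DMSO arrays were the lowest for Bcl6b, where they were the highest for Bcl6. That difference from fresh cells, -0.21 ± 0.08 (SE, log2), was not called (limma, adjusted p = 0.11).

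Hdac3, the deacetylase of the Ncor1 complex, varied little. It had 3282 and 3321 in 79-6 cells, 3337 and 3370 in DMSO cells and 3719 and 3646 in fresh cells. These 3 groups did not overlap, nor did those of Bcl6b, so lack of overlap was not particular to Bcl6 and Bcor. Both cultured groups lay below the fresh arrays and the change in DMSO over fresh cells was -0.13 ± 0.07 (SE, log2), with a 95% interval from -0.29 to 0.02 and no call (limma, adjusted p = 0.232).

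Tbl1xr1, which holds Hdac3 and Ncor1 in 1 complex, was represented by 2 probe sets. The brighter gave 1884 and 2040 in 79-6 cells, 1933 and 1933 in DMSO cells and 2051 and 1919 in fresh cells, so that all 3 groups overlapped. Its change in DMSO over fresh cells was -0.04, with a 95% interval from -0.22 to 0.14. The dimmer gave 1414 and 1490 in 79-6 cells, 1492 and 1528 in DMSO cells and 1696 and 1670 in fresh cells, with no overlap between groups. Its change was -0.16 ± 0.07 (SE, log2) in DMSO over fresh cells and -0.21 ± 0.07 in 79-6 over fresh cells, neither called by limma (adjusted p = 0.19 and 0.0667). The probe sets thus differ in whether groups overlap, and no change of Tbl1xr1 was called with either.

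**Figure D2:**
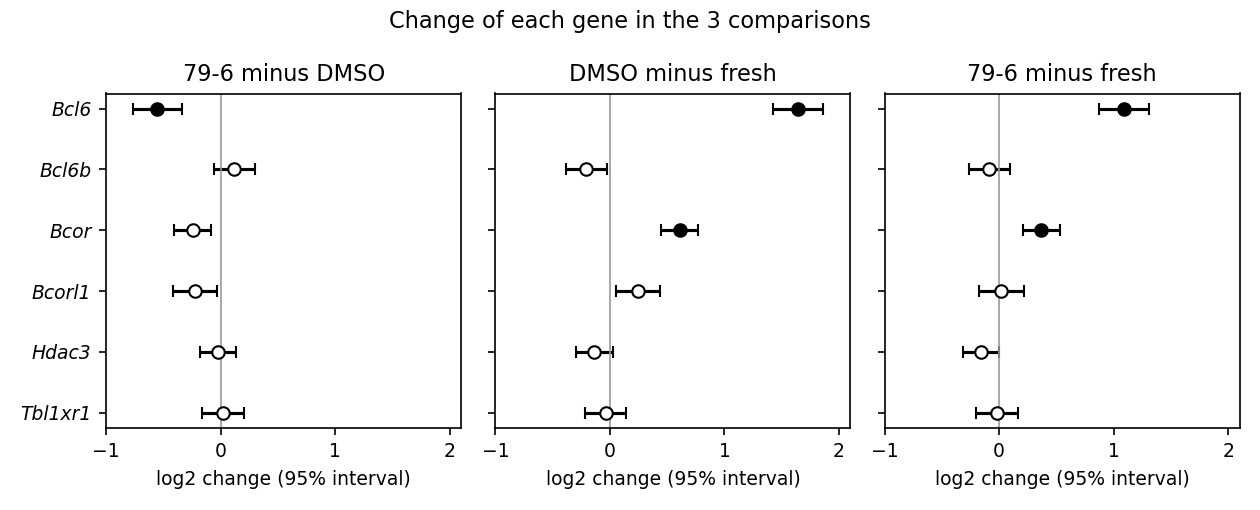
Log2 change (horizontal axis) of the 6 measured genes (rows) for 79-6 minus DMSO, DMSO minus fresh and 79-6 minus fresh, with unadjusted 95% intervals from limma. Filled points passed an adjusted p of 0.05 over all genes; Bcl6 is filled in all 3 panels and Bcor in the 2 panels against fresh cells.

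The comparison of 79-6 cells with DMSO cells, both stimulated for 40 h, sets transcripts of the compound's own target and of the target's partners with and without the compound side by side. Bcl6 fell 1.47-fold, a log2 change of -0.55 ± 0.09 (SE, adjusted p = 0.0251 by limma). It was the only 1 of 6 measured members called in this comparison, where 4.36% of all genes were called and 1.98% were called lower. Leaving out any 1 of the 4 arrays compared kept the fall but ended the call: the change was -0.65 without DMSO replicate 1 (adjusted p = 0.0713, limma), -0.45 without DMSO replicate 2 (0.147), -0.56 without 79-6 replicate 1 (0.0613) and -0.54 without 79-6 replicate 2 (0.122).

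The 2 Bcor genes stood lower in all 79-6 arrays than in all DMSO arrays, without reaching a call. The change was -0.24 ± 0.07 (SE, log2) for Bcor (limma, adjusted p = 0.103) and -0.22 ± 0.08 for Bcorl1 (0.185), with unadjusted 95% intervals from -0.40 to -0.08 and from -0.42 to -0.03. For Bcl6b the 79-6 arrays were higher, by 0.12 with an interval from -0.06 to 0.30. For the deacetylase complex the intervals lay near 0, from -0.18 to 0.14 for Hdac3 and from -0.16 to 0.20 for Tbl1xr1, which does not show that either transcript was the same in both groups.

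The comparison of 79-6 cells with fresh cells uses the same arrays as both others, and its values stand beside them for that reason only. Bcl6 was 2.13-fold higher in 79-6 cells than in fresh cells (log2 change 1.09 ± 0.09 SE, adjusted p = 2.31e-04 by limma). Bcor was 1.29-fold higher (0.37 ± 0.07 SE, adjusted p = 0.00755); leaving out fresh replicate 2 ended that call (0.35, adjusted p = 0.0533, limma). Thus 2 of 6 measured members were called, both higher, where 26.0% of all genes were called and 12.0% were called higher. Bcorl1 differed by 0.02, with an interval from -0.17 to 0.21. Hdac3 differed by -0.16 ± 0.07 (SE; limma, adjusted p = 0.134), and was called lower with trended and robust variance estimates (adjusted p = 0.0256).

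Of the other proteins in the Ncor1 complex, 7 genes were measured. The core subunit Gps2 was near 0 in all 3 comparisons, at -0.00 in 79-6 over DMSO cells, 0.12 in DMSO over fresh cells and 0.11 in 79-6 over fresh cells (log2 changes, no call). Tbl1x, the relative of Tbl1xr1, had changes of -0.13, 0.12 and -0.01 in the same order, also without a call. Coro2a, an actin-binding component found with the Ncor1 complex, had 1894 and 1949 in 79-6 cells, 1383 and 1196 in DMSO cells and 2921 and 2998 in fresh cells. It was lowest in DMSO cells, where Bcl6 was highest, and its groups did not overlap. It rose by 0.58 ± 0.09 in 79-6 over DMSO cells (SE, adjusted p = 0.0186 by limma), a call lost without DMSO replicate 2 or 79-6 replicate 2, and fell by 1.20 in DMSO over fresh cells (adjusted p = 1.49e-04). Zbtb33, a BTB protein that also recruits Ncor1, rose by 0.45 in DMSO over fresh cells and by 0.34 in 79-6 over fresh cells, the second call being lost without either fresh array. Altogether 1 gene was called higher and 1 lower of the 7 in DMSO against fresh cells, 1 higher in 79-6 against DMSO cells, and 1 higher and 1 lower in 79-6 against fresh cells. The shares of all genes called higher and lower were 8.89% and 10.7% in DMSO against fresh cells, 2.38% and 1.98% in 79-6 against DMSO cells, and 12.0% and 13.9% in 79-6 against fresh cells, so a count of 1 in 7 is near the background against fresh cells.

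Partners of Bcor in its Polycomb complex moved little. Of 9 listed genes 8 were measured, and in DMSO over fresh cells 2 of the 8 were called higher and none lower, beside 8.89% and 10.7% of all genes. They were Rnf2, the ubiquitin ligase (log2 change 0.34, adjusted p = 0.014 by limma), and Kdm2b, which binds unmethylated CpG islands (0.28, adjusted p = 0.0426). Neither was called when fresh replicate 1, fresh replicate 2 or DMSO replicate 1 was left out, and 1 was called when DMSO replicate 2 was left out. In 79-6 over DMSO cells limma called 0 of 8, where 1 had an unadjusted p under 0.05; the smallest p-values were those of Kdm2b (-0.22, adjusted p = 0.163), the cullin adaptor Skp1 (-0.24, 0.272) and Rnf2 (-0.10, 0.5). In 79-6 over fresh cells only Rnf2 was called (0.24), and not when any 1 of the 6 arrays was left out. The median change of the 8 was -0.08 in 79-6 over DMSO cells, 0.12 in DMSO over fresh cells and 0.07 in 79-6 over fresh cells, beside 0.02, 0.02 and 0.05 for all genes.

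Of 16 other corepressors listed for Bcl6, DMSO cells had 7 higher and 3 lower than fresh cells, and 79-6 cells had 1 higher than DMSO cells. Of all genes 8.89% were higher and 10.7% lower in the first comparison and 2.38% were higher in the second. The class IIa histone deacetylases, which bind Bcl6 outside the groove, included rises and a fall. Hdac4 had 826 and 833 in 79-6 cells, 888 and 895 in DMSO cells and 3726 and 3452 in fresh cells. Both cultured groups were far below the fresh arrays, and its change was -2.01 in DMSO over fresh cells (adjusted p = 1.4e-05, limma) and -2.11 in 79-6 over fresh cells. Hdac5 rose by 1.25 and 1.20 and Hdac7 by 0.54 and 0.49 in those 2 comparisons. Sirt1, a deacetylase of another class, rose by 0.53 in DMSO over fresh cells. Hdac9 was the gene called in 79-6 over DMSO cells (0.43, adjusted p = 0.0401 by limma), a call lost when any 1 of the 6 arrays was left out, and it was higher by 0.68 in 79-6 over fresh cells. Hdac9 was dim, at 111 and 122 in 79-6 cells, 84.5 and 88.3 in DMSO cells and 69.5 and 75.5 in fresh cells. Its DMSO and fresh values lay below the median signal of the arrays. With 1 array left out, the 7 higher became 3 (fresh replicate 1, fresh replicate 2 or DMSO replicate 1) or 4 (DMSO replicate 2), and the 3 lower became 1 for each of these 4 arrays. In 79-6 against fresh cells 4 were higher and 2 lower, beside 12.0% and 13.9% of all genes, with 1 lower without fresh replicate 1.

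Known regulators of Bcl6 transcript or protein, 15 of 19 listed genes, included Foxo1, a transcription factor held out of the nucleus by growth signals. It had 2051 and 2185 in 79-6 cells, 1073 and 1120 in DMSO cells and 406 and 412 in fresh cells, without overlap. Foxo1 thus stood highest in 79-6 cells, where Bcl6 was intermediate, and rose by 0.95 ± 0.07 (SE, adjusted p = 0.00213 by limma) in 79-6 over DMSO cells and by 1.42 in DMSO over fresh cells. Irf4, which can repress Bcl6 in B cells, was the other gene called in 79-6 over DMSO cells (0.48, adjusted p = 0.0173 by limma), where 2.38% of all genes were called higher; the 2 calls became 1 when either DMSO array or 79-6 replicate 2 was left out. Irf4 was dim, at 124 and 120 in 79-6 cells, 89.5 and 85.5 in DMSO cells and 70.7 and 71.5 in fresh cells. Its DMSO and fresh values lay below the median signal of the arrays. In DMSO over fresh cells 4 regulators were higher and 2 lower, beside 8.89% and 10.7% of all genes. Id3, an inhibitor of E proteins, rose by 2.46 and Fbxo11, the ubiquitin ligase adaptor that degrades Bcl6 in B cells, by 0.39, while the signal transducer Stat5a fell by 0.46. The 4 became 2 when replicate 2 of either group was left out. The 2 lower became 0 when replicate 1 of either group was left out, and 1 for each of the other 4 arrays. In 79-6 over fresh cells 5 were higher, among them Id3 (2.43), Foxo1 (2.37) and Irf4 (0.78), and 2 lower, Stat5a (-0.65) among them, beside 12.0% and 13.9% of all genes; 1 was lower without either fresh array or 79-6 replicate 1.

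The genes whose profile over the 6 arrays lay closest to that of Bcl6 were Mef2a, Nab2, Pfkp, Pvr and Depdc1a. Likeness was the Euclidean distance between log2 profiles, each centred on its own mean. The distances were 0.16, 0.20, 0.24, 0.27 and 0.28 log2 units, where the group means of Bcl6 itself spanned 1.64, and the correlations with Bcl6 over the 6 arrays lay between 0.988 and 0.996 as a description of 3 groups of 2. Mef2a, a transcription factor downstream of calcium signals, had 2693 and 2633 in 79-6 cells, 3546 and 3855 in DMSO cells and 1224 and 1254 in fresh cells. Nab2, a corepressor of the Egr factors, had 772 and 781 in 79-6 cells, 1009 and 1061 in DMSO cells and 350 and 356 in fresh cells. Pfkp is a phosphofructokinase and Pvr an adhesion receptor of the nectin family. Since the 5 genes were picked for likeness to Bcl6 on these same 6 arrays, their order of groups follows from the choice and no test is given for them.

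**Figure D3:**
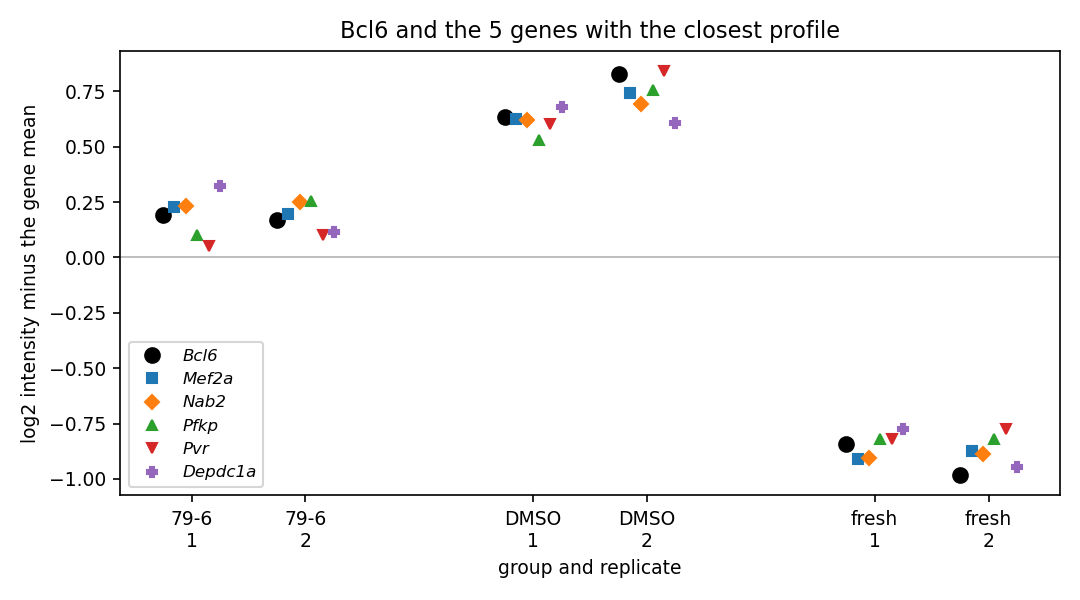
Log2 intensity of Bcl6 and its 5 nearest genes on each array, minus each gene's mean over the 6 arrays (vertical axis), by group and replicate (horizontal axis). The genes were chosen for this likeness; for all 6 both DMSO arrays are highest, the 79-6 arrays lie between and the fresh arrays are lowest.

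Candidate targets, genes that Bcl6 represses in B or T cells, gave 22 measured of 25 listed. Irf4, Prdm1 and Ep300 are also among the regulators above, so a call of any of these counts in both lists. In 79-6 over DMSO cells, where Bcl6 transcript was lower, 8 candidate targets rose, Irf4 among them, and 2 fell. Of all genes 2.38% were called higher and 1.98% lower. The median change of the 22 was 0.37, against 0.02 for all genes. The list was chosen with earlier results of these data known, so its excess over all genes is no test of Bcl6 action. S1pr1, the receptor for exit from the thymus, had 2851 and 2748 in 79-6 cells and 1200 and 1196 in DMSO cells, a log2 change of 1.22 ± 0.13 (SE, adjusted p = 0.00569 by limma). Socs2, an inhibitor of cytokine signals, had 372 and 405 in 79-6 cells and 175 and 169 in DMSO cells (1.17, adjusted p = 9.38e-04). Klf2, the activator of S1pr1, rose by 1.01 and the survival gene Bcl2 by 0.68. Those that fell were Bcl2l1 (-0.59), another survival gene, and the checkpoint kinase Chek1 (-0.54). The 8 became 3 without DMSO replicate 1 or 79-6 replicate 2 and 2 without DMSO replicate 2, and the 2 became 0 without any of these 3 arrays. The call of S1pr1 was lost without DMSO replicate 1 (log2 change 1.23, adjusted p = 0.0567 by limma) or DMSO replicate 2 (1.22, 0.0607) and that of Bcl2 without DMSO replicate 2 (0.54, 0.0896) or 79-6 replicate 2 (0.65, 0.11), whereas Socs2 and Klf2 kept theirs whichever array was left out.

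In DMSO over fresh cells, where Bcl6 was higher, the same list had 5 genes higher and 8 lower, beside 8.89% and 10.7% of all genes, with a median of 0.21 against 0.02. Socs2 (-2.15) and Gpr183, a migration receptor (-2.31), fell, whereas S1pr1 (2.27) and Bcl2l1 (1.12) rose. Klf2 rose by 1.01 and Bcl2 fell by 0.70. Both comparisons use the DMSO arrays, so the values are set side by side only. With arrays set to one median 8 of the list were higher in DMSO cells. In 79-6 over fresh cells 9 were higher, led by S1pr1 (3.50) and Klf2 (2.02), and 7 lower, Gpr183 (-1.94) and Socs2 (-0.98) among them, where 12.0% of all genes were called higher and 13.9% lower. In this comparison some of the calls in each direction were lost when 1 array was left out.

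**Figure D4:**
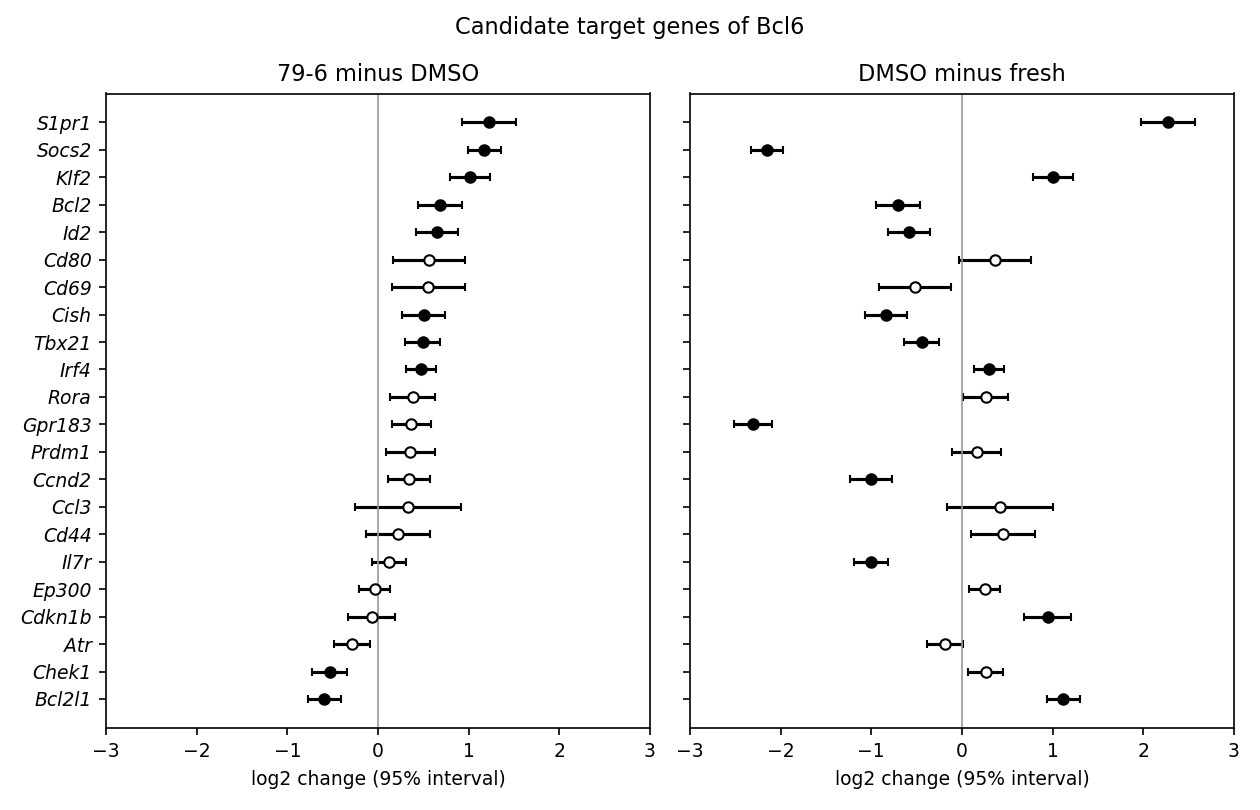
Log2 change (horizontal axis) of the 22 measured candidate targets of Bcl6 (rows, ordered by the left panel) for 79-6 minus DMSO and DMSO minus fresh, with unadjusted 95% intervals from limma. Filled points passed an adjusted p of 0.05 over all genes, 8 to the right and 2 to the left of 0 in the left panel and 5 and 8 in the right panel.

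Markers of the sorted and of other cell types moved with the groups. Replicate arrays correlated at 0.997 to 0.998 across genes. Of all genes 8.89% were called higher and 10.7% lower in DMSO over fresh cells. The shares were 2.38% and 1.98% in 79-6 over DMSO cells and 12.0% and 13.9% in 79-6 over fresh cells. Counts of markers called below stand beside these shares. The sort antigen Thy1 measured 8493 and 8662 in 79-6 cells, 9399 and 9810 in DMSO cells and 7242 and 7045 in fresh cells. The summed signal of the T-lineage markers, 10 of 12 measured, was 40661 to 42634, 39889 to 41117 and 45417 to 46708 in that order of groups. Single T-lineage genes moved in both directions. In DMSO over fresh cells 5 were called higher and 4 lower, from Cd28 (log2 change 2.30) to Ptcra (-1.86). In 79-6 over fresh cells 4 were higher and 5 lower, and in 79-6 over DMSO cells 1 was higher and 0 lower. Macrophage and dendritic markers, 12 of 12 measured, summed to 16471 to 19041 in 79-6 cells, 13753 to 14042 in DMSO cells and 2791 to 4530 in fresh cells. Lyz2 made up most of the sum in both cultured groups. It had 9354 and 11052 in 79-6 cells, 8597 and 8440 in DMSO cells and 446 and 751 in fresh cells. Of the 12 genes, DMSO cells had 6 called higher than fresh cells, as they had Bcl6, and 6 not called. The calls of Fcgr1 and Mpeg1 among them were lost when any 79-6 or DMSO array was left out. Cd14 and Cx3cr1 gained a call without either 79-6 array, and Cd14 and Cd68 without fresh replicate 2. In 79-6 over fresh cells 10 were called higher. There Cd14, Cd68 and Cx3cr1 each lost the call with at least 1 array left out, and Mertk gained one without fresh replicate 2. In 79-6 over DMSO cells, where Bcl6 was lower, 1 was higher, Itgax, and its call was lost without either DMSO array or 79-6 replicate 2. Natural killer and innate-lymphoid markers, 8 of 10 measured, summed to 5945 to 6112 in 79-6 cells, 2984 to 2993 in DMSO cells and 6753 to 8228 in fresh cells. These sums, mostly Nkg7, stood in the opposite order to that of Bcl6. Of the 8 genes, 3 were called higher in 79-6 than in DMSO cells and 5 lower in DMSO than in fresh cells. In 79-6 over fresh cells 2 were higher and 1 lower, so not every gene followed the sum. Klrd1 had 378 and 345 in 79-6 cells, 189 and 180 in DMSO cells and 168 and 212 in fresh cells. Its call in 79-6 over DMSO cells was lost without either DMSO array or 79-6 replicate 2, and that of Gzmb without either 79-6 array or DMSO replicate 2. Some candidate targets, such as Id2 and Tbx21, are also expressed in natural killer and innate-lymphoid cells. Thymic epithelial markers, 10 of 10 measured, summed to 3670 to 3698, 3077 to 4257 and 9810 to 9823 in 79-6, DMSO and fresh cells. All 10 were called lower than in fresh cells in both cultured groups. B cell markers, 7 of 8 measured, summed to 2825 to 3104, 2144 to 2240 and 2523 to 2632 in the same order of groups. Most of the B cell sum was Cd79b, with 2536 and 2789 in 79-6 cells, 1839 and 1931 in DMSO cells and 2216 and 2276 in fresh cells. It was the 1 gene of the 7 called higher in 79-6 than in DMSO cells, a call lost without either DMSO array or 79-6 replicate 2. Cd79a and Ms4a1 lay between 18.4 and 27.8 on all arrays. Granulocyte and mast cell markers (10 of 10) summed to 2680 to 3828, 3318 to 3618 and 3796 to 4274. In DMSO over fresh cells 4 genes of that list rose, S100a8 (log2 change 2.03), Elane (1.49), S100a9 (1.25) and Mpo (0.89), and the mast cell gene Cpa3 fell (-1.61). Cpa3 (-1.43) and Mpo (-0.86) were lower in 79-6 than in DMSO cells. That call of Mpo was lost when any 1 of the 4 arrays compared was left out. Erythroid markers (5 of 8) summed to 533 to 637, 549 to 550 and 837 to 1235, and mesenchymal and endothelial markers (10 of 10) to 4158 to 4204, 3669 to 4241 and 4904 to 5284. The part of these cells in the values of Bcl6, its partners and its targets was not tested.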

How the data were processed

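Per the submitters' processing notes, arrays were processed with RMA in the R package oligo. What was deposited is 1 RMA intensity value per probe set and array, not on a log scale (8.75 to 25316), and its log2 was used in every test. Of 34760 probe sets 21640 have a single symbol in the platform annotation, and per gene the brightest over the 6 arrays was used (19937 genes). One linear model with a mean for each group covered the 6 arrays (limma version 3.58.1 under R version 4.3.3, functions lmFit and eBayes, with 3 residual degrees of freedom and 4.24 from the prior). Tests were two-sided, and p-values were adjusted after Benjamini-Hochberg over all genes, with a threshold of 0.05. The fit was tested on simulated data. Arrays give no counts, and 2 arrays per group limit the precision.

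The members, lists and tests were chosen with earlier results of these data known. From each list and comparison the text names up to 4 called genes with the largest change, or the 3 with the smallest p where none was called, plus Gps2, Tbl1x and the 5 genes closest to Bcl6. Bcl2l1 and Chek1 in 79-6 against DMSO cells, the per-group signals of partners and targets, and the genes named among the markers (with Id2 and Tbx21), were chosen after their values were seen. The labels name no pairing, and arrays with the same number did not deviate together (correlations across genes of 0.0036, 0.0948 and -0.0740). Alternatives were a replicate block, arrays set to one median, log2(intensity + 16), leaving out genes below the 25th percentile of signal, the mean of probe sets, trended and robust variances, fits of only the groups compared and leaving out each array. The dimmer Tbl1xr1 probe set was added after the data were seen. Promoter windows are RefSeq's (GRCm38.p6).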

Additional observations from a re-analysis of the deposited data

How the results depend on the processing

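Of 237 values of members under the alternatives, 222 kept their direction and their side of the threshold. In 79-6 against DMSO cells Bcl6 changed by -0.65 to -0.45 without 1 of the 4 arrays compared, each without a call, and the members called numbered 0 to 1 when 1 array was left out. In 79-6 against fresh cells the members called numbered 1 to 2 when 1 array was left out, with Bcor between 0.35 and 0.38, and Hdac3 (-0.16) was called with trended and robust variances; the cause was not tested. The sign of uncalled changes near 0 turned for Tbl1xr1 and Bcorl1. Leaving out 1 array gave Tbl1xr1 changes of -0.086 to 0.010 in DMSO against fresh, -0.037 to 0.078 in 79-6 against DMSO and -0.075 to 0.040 in 79-6 against fresh cells (0.031 without fresh replicate 1), and Bcorl1 changes of -0.030 to 0.070 in 79-6 against fresh cells. With arrays set to one median Tbl1xr1 was at 0.0027 in DMSO and 0.013 in 79-6 against fresh cells, and in 79-6 against DMSO cells it was at -0.018 with the mean of probe sets and -0.057 with the dimmer one. The replicate block changed no call of a member, with 1 member called between the stimulated groups and 2 in each comparison with fresh cells. Over all genes the block gave 774 calls in 79-6 against DMSO cells, and trended and robust variances gave 1723, against 869. Leaving out 1 array gave 93 to 661 there, 2286 to 4070 in DMSO against fresh cells (3902 with all arrays) and 3081 to 5068 in 79-6 against fresh cells (5174); the lone array is assumed to vary like the others. Partner lists also moved with other settings. In DMSO against fresh cells the Bcor partners called higher were 1 with the block and 4 with trended variances, the other corepressors called lower 1 with the block or one median, and the regulators called lower 1 with the block, one median or only the groups compared. In 79-6 against DMSO cells other corepressors had 0 higher when only the groups compared were fitted and 2 lower with trended variances. In 79-6 against fresh cells the Bcor partners called higher were 0 to 2 under all settings tried and those called lower 0 to 1.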
